A study of Mus musculus with 6 samples.

Results

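The flavin-containing monooxygenase genes Fmo1, Fmo2, Fmo4 and Fmo5 were followed in mouse liver RNA. They were chosen by gene name, and these 4 genes are 4 of the 49212 genes counted. The data are 6 sequencing libraries from C57BL/6J mice aged 15 weeks: 3 livers labelled as coming from mice with a DHT pellet and described as a model of polycystic ovary syndrome (PCOS), and 3 livers labelled placebo. DHT is dihydrotestosterone, an androgen that aromatase does not turn into an estrogen. The labels give no sex and no time of collection, and they do not say that each library is 1 animal, so the p-values speak of the spread among these 6 libraries, which may be technical. The title places the comparison in work on androgen excess, the hepatic clock and fatty liver.

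Flavin-containing monooxygenases sit in the membrane of the endoplasmic reticulum and add 1 oxygen atom to soft nucleophiles such as amines and sulfides. They hold FAD and take electrons straight from NADPH, whereas microsomal cytochromes P450 need a separate reductase. Fmo1 encodes a broad drug-oxidising enzyme of mouse liver, which also turns hypotaurine into taurine. Fmo2 encodes the form best known from lung, Fmo4 a form with few known substrates, and Fmo5 a form that acts mainly as a Baeyer-Villiger oxidase on ketones and that affects body fat and cholesterol in mice. Hepatic levels of some members are known to differ between male and female mice.

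Total counts lay between 41336844 and 60209462 per library, and the libraries numbered 3 were the smallest of each group. Albumin, the main hepatocyte product, took 5.56% to 6.90% of all counts in the libraries labelled DHT and 6.27% to 9.29% in placebo. Levels are given as CPM, the counts per 1000000 counts of a library, scaled by edgeR's TMM factors unless stated otherwise. Y-linked transcripts split the libraries exactly along the treatment labels. Ddx3y, a Y-linked RNA helicase gene, had 70.7 ± 2.37 CPM in the libraries labelled DHT and 0.0746 ± 0.0247 CPM in placebo (SD, n = 3 each). Xist, the RNA that coats and silences an X chromosome in female cells, had 12, 6 and 23 counts in the libraries labelled DHT and 2522, 1281 and 12404 in placebo. By these transcripts the 3 libraries labelled DHT read as male and the 3 placebo libraries as female. A male reading is at odds with the description of the DHT mice as a model of an ovarian syndrome. The treatment label and the sex of the libraries therefore cannot be told apart in any difference given here.

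Fmo2 was lower in the libraries labelled DHT than in placebo, and it was the 1 member of the 4 that passed the test. Fmo1 and Fmo4 had lower means and Fmo5 a higher mean in those libraries, and none of the 3 passed. Over all 15126 genes tested, 1.65% were called, 0.952% higher and 0.701% lower. Per kb of annotated exon, Fmo5 had the highest CPM of the 4 in every library, followed by Fmo1, with Fmo2 and Fmo4 far below.

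**Figure D1:**
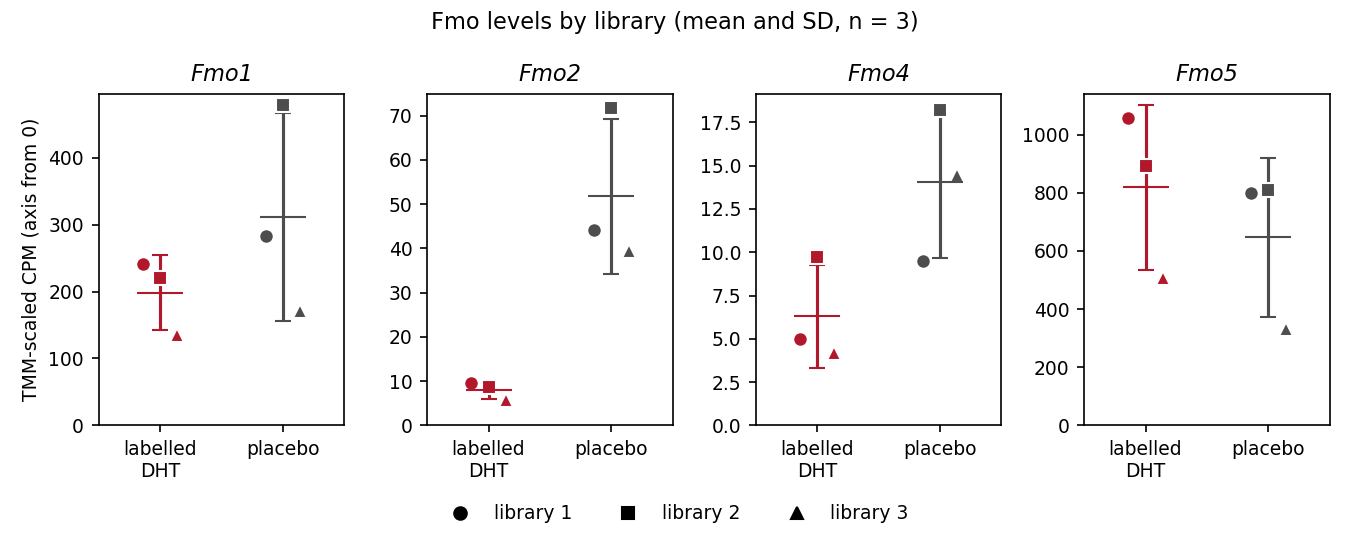
Level of each Fmo gene in TMM-scaled CPM, 1 symbol per library, with the mean and SD of 3 libraries; each axis starts at 0. The libraries labelled DHT sit below placebo in Fmo2, at most 9.51 against at least 39.3 CPM, and the groups overlap in the other panels.

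Fmo2 (GRCm38 chromosome 1, 162874317 to 162898726, minus strand, protein-coding) had 9.51, 8.67 and 5.66 CPM in libraries 1 to 3 labelled DHT, against 44.1, 71.7 and 39.3 CPM in placebo 1 to 3. All 3 libraries labelled DHT were below all 3 placebo libraries, and the lowest placebo value was 4.14 times the highest value in the libraries labelled DHT. The counts behind these levels were 586, 485 and 253 in the libraries labelled DHT and 2567, 3639 and 1914 in placebo. The log2 fold change (DHT minus placebo) was −2.70 ± 0.34 (SE), a 6.5-fold lower level, by edgeR's quasi-likelihood test (adjusted p = 0.0102). The gene stood at rank 66 of the 15126 by p, and 56 genes called lower had a larger difference. Leaving out DHT 2 ended the call (log2 fold change −2.76, adjusted p = 0.0611), while the size of the difference hardly moved. The groups did not overlap in 1 member of 4, which is near the 23.6% of all genes tested in which they did not (12.7% with DHT above placebo and 10.9% with DHT below).

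In bulk liver, fewer cells of a type and less RNA per cell cannot be told apart. Since Fmo2 is best known from lung, lung epithelial markers were read as a check of the dissection: Sftpc, Sftpb and Scgb1a1, which encode surfactant proteins and a club cell protein, had between 0 and 3 counts in any library. Fmo2 had 253 to 3639 counts in the same libraries, and the source of its reads was not tested.

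RefSeq start windows, from 250 bases before to 50 bases after an annotated start on GRCm38.p6, were found for 3 of the 4 members: Fmo2, Fmo4 and Fmo5. The windows of Fmo2, the member called lower, and of Fmo5, the most abundant member, are shown so that the pair can be compared by letter. Capitals mark matches to any of 7 short motifs searched on both strands: the TATA motif TATAAA, the motif CCAAT, the STAT-type TTCNNNGAA, the AHR core GCGTG, the E-box CACGTG, the nuclear receptor half-site AGGTCA and the HNF1 half-site GTTAAT. The first is the upstream start of Fmo2 (chr1:162898709-162899008, minus strand), the second its downstream start (chr1:162898444-162898743, minus strand) and the third the start of Fmo5 (chr3:97628769-97629068, plus strand).
Fmo2 upstream start: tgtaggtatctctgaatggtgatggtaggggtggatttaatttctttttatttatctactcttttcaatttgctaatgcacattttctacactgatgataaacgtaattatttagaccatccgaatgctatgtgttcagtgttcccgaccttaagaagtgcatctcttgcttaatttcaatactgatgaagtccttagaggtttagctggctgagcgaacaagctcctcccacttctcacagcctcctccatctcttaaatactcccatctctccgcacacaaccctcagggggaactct
Fmo2 downstream start: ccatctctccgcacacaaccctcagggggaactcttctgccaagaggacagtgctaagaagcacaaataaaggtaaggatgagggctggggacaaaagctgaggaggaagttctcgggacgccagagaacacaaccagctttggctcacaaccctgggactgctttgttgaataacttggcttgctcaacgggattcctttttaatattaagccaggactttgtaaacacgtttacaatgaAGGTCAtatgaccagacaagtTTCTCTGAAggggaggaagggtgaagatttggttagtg
Fmo5 start: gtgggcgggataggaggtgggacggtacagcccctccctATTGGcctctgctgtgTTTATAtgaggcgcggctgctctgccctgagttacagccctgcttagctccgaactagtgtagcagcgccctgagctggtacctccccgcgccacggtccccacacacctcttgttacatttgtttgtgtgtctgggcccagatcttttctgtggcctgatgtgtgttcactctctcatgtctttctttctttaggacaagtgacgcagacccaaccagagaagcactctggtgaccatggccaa

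The upstream window of Fmo2 held 0 of the 7 motifs. Its downstream window held the half-site AGGTCA, which 16.3% of 32851 windows of this kind hold, and the STAT-type motif as TTCTCTGAA, which 8.3% hold. The Fmo5 window held the CCAAT motif as ATTGG and the TATA motif as TTTATA, both read on the other strand, which 37.4% and 13.6% of windows hold. The Fmo4 window held CCAAT and, on the other strand, the half-site as TGACCT. G and C made up 41.3% and 47.7% of the Fmo2 windows, 42.7% of the Fmo4 window and 56.0% of the Fmo5 window, beside a median of 52.7% over all windows. A match of this kind describes letters and shows no binding.

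Fmo4 (chromosome 1, 162793188 to 162813972, minus strand, protein-coding) had 4.997, 9.72 and 4.20 CPM in libraries 1 to 3 labelled DHT, against 9.51, 18.2 and 14.45 CPM in placebo 1 to 3. The groups touched only through DHT 2, which was just above placebo 1. The log2 fold change was −1.15 ± 0.39, a mean of 6.31 ± 2.98 CPM in the libraries labelled DHT and 14.05 ± 4.36 CPM in placebo (SD, n = 3 each), and edgeR's test did not pass (adjusted p = 0.219). With the replicate number as a block Fmo4 was called (log2 fold change −1.20, adjusted p = 0.00312), where 10.7% of all genes were called and 5.28% were called lower. Within numbers 1, 2 and 3 the log2 difference was −0.93, −0.90 and −1.78. The labels do not name such pairs, and Fmo1 and Fmo5, which were not called, also had 3 differences of 1 sign.

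Fmo1 (chromosome 1, 162829561 to 162866610, minus strand, protein-coding) had 241, 219.6 and 135 CPM in libraries 1 to 3 labelled DHT, against 282.5, 479 and 171.5 CPM in placebo 1 to 3. The groups overlapped, because placebo 3 was below DHT 1 and DHT 2, and placebo 2 stood alone at the top. The log2 fold change was −0.65 ± 0.41 (edgeR adjusted p = 0.477). Without placebo 2 it shrank to −0.20, and without placebo 3 it was −0.94 (adjusted p = 0.116), so the size of the Fmo1 difference rested on single placebo libraries. Within numbers 1, 2 and 3 the log2 difference was −0.23, −1.12 and −0.35.

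Fmo5 (chromosome 3, 97628804 to 97655282, plus strand, protein-coding) lies on another chromosome than the other members. It had 1059, 893 and 507 CPM in libraries 1 to 3 labelled DHT, against 799.7, 811 and 332 CPM in placebo 1 to 3. The groups overlapped through DHT 3, and the library numbered 3 was the lowest of its group on both sides. The log2 fold change was 0.34 ± 0.43 (edgeR adjusted p = 0.727), and it was 0.02 without placebo 3. Within numbers 1, 2 and 3 the log2 difference was 0.40, 0.14 and 0.61.

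Libraries numbered 3 were also lowest of their group for Fmo1 and Fmo2 on both sides. Each was the smallest library of its group, with 41336844 counts in DHT 3 and 52814320 in placebo 3. Mitochondrial genes took 6.44%, 8.48% and 8.001% of counts in libraries 1 to 3 labelled DHT and 6.83%, 4.83% and 3.23% in placebo 1 to 3, so the mean share was higher in the libraries labelled DHT (7.64% against 4.96%) and the groups overlapped only through DHT 1 and placebo 1. The part of depth and of the mitochondrial share in the Fmo levels and differences was not tested. Without both libraries numbered 3, an alternative chosen after seeing the data, the log2 fold change of Fmo2 was −2.67 (edgeR adjusted p = 0.00827).

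**Figure D2:**
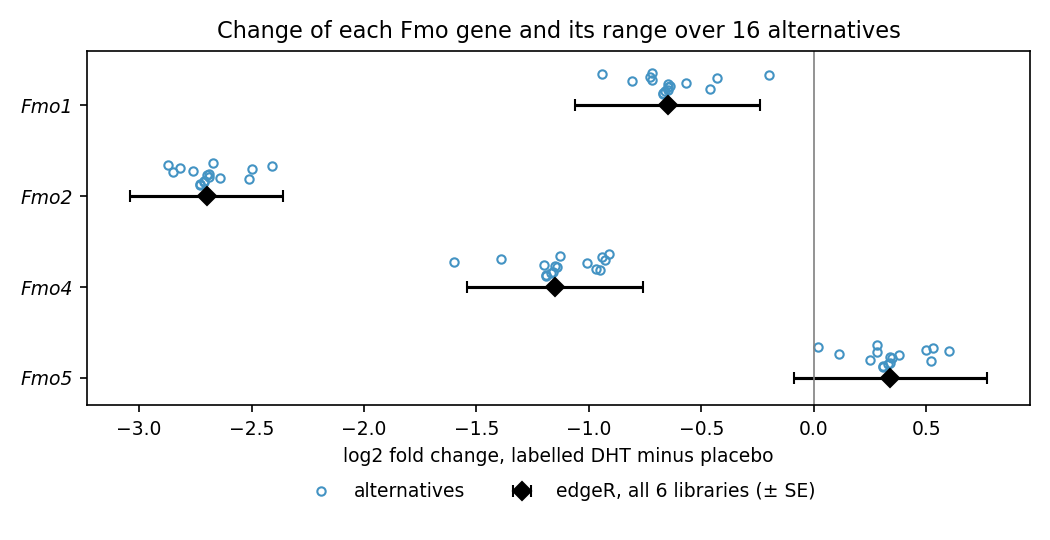
Log2 fold change (DHT minus placebo) of each Fmo gene by edgeR with its SE over 6 libraries (diamonds) and under 16 alternative settings, which include leaving out libraries (open circles). Fmo2 lies between −2.87 and −2.41 and Fmo4 between −1.60 and −0.91 over the alternatives, while Fmo5 lies between 0.02 and 0.60.

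The levels of the 4 genes were set side by side per length, as TMM-scaled CPM per kb of exon. This length joins all annotated exons of a gene and is not the length of a transcript. Fmo5 had 144.4 ± 49.9 in the libraries labelled DHT and 114 ± 48.2 in placebo, and Fmo1 had 31.5 ± 8.88 in the libraries labelled DHT and 49.3 ± 24.7 in placebo (SD, n = 3 each). Fmo2 had 1.42 ± 0.361 in the libraries labelled DHT and 9.22 ± 3.11 in placebo, and Fmo4 had 1.70 ± 0.805 in the libraries labelled DHT and 3.79 ± 1.18 in placebo. Fmo5 was above Fmo1 within every library, although the ranges of the pair overlapped across placebo libraries, at 58.5 to 143 for Fmo5 and 27.2 to 75.9 for Fmo1. In placebo Fmo2 was above Fmo4 in all 3 libraries with no overlap. In the libraries labelled DHT the ranges of Fmo2 and Fmo4 overlapped, at 1.01 to 1.70 and 1.13 to 2.62, and Fmo4 was the higher in libraries 2 and 3. That order depends on the length used, since in CPM Fmo2 was the higher in DHT 3, at 5.66 against 4.20.

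As shares of the sum over the 4 genes, Fmo5 made up 79.1% to 81.9% in the libraries labelled DHT and 60.4% to 71.8% in placebo. The share of Fmo1 was 16.8% to 19.0% in the libraries labelled DHT and 22.8% to 32.1% in placebo. Fmo2 made up 0.744% to 0.894% in the libraries labelled DHT and 4.01% to 7.26% in placebo. None of these 3 shares overlapped between the groups, whereas the share of Fmo4 did, at 0.592% to 1.34% in the libraries labelled DHT and 1.31% to 4.03% in placebo. The shares of a library add up to the whole, so they are not independent of each other. In CPM, the groups overlapped for both Fmo1 and Fmo5. How often such shares separate the groups in other sets of genes was not computed, and 23.6% of single genes tested separated them. The sum itself was 112.8 to 227.8 CPM per kb in the libraries labelled DHT and 96.6 to 236.6 in placebo, with no separation. These shares are a description with no test.

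**Figure D3:**
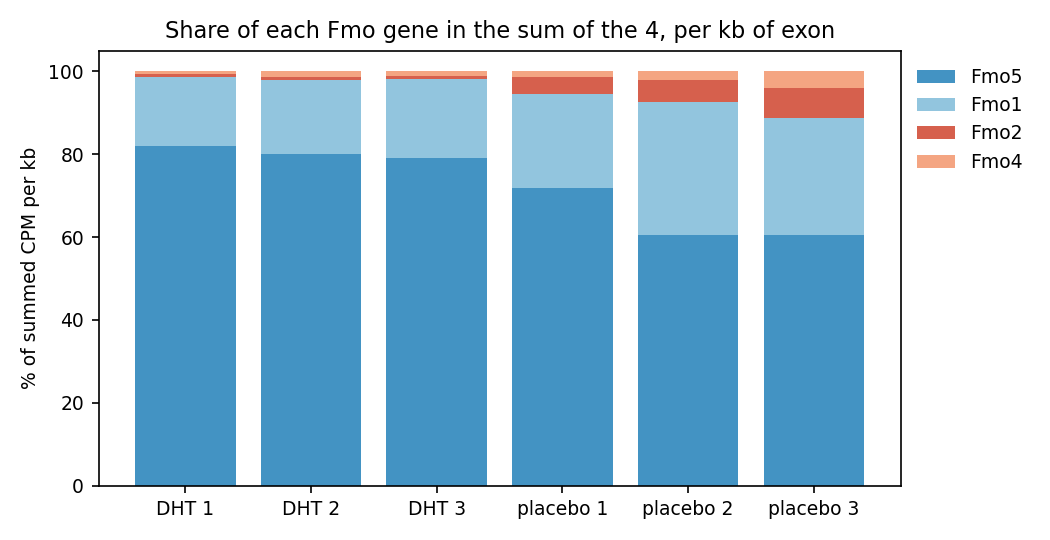
Share of each Fmo gene in the sum of the 4 genes per library, from TMM-scaled CPM per kb of exon, in percent. Fmo5 fills 79.1% to 81.9% of each bar labelled DHT and 60.4% to 71.8% of each placebo bar, and the Fmo2 segment is under 1% in the bars labelled DHT.

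Whether 2 members changed unequally was read from their ratio within each library, which needs no scaling between libraries. The log2 ratio of Fmo2 to Fmo5 per kb was −6.78, −6.67 and −6.46 in libraries 1 to 3 labelled DHT, against −4.16, −3.48 and −3.06 in placebo, a mean difference of −3.07. That of Fmo1 to Fmo2 was 4.49, 4.49 and 4.4 in the libraries labelled DHT and 2.51, 2.57 and 1.96 in placebo. Of the 6 pairs of members, 5 had ratios that did not overlap between the groups, and Fmo1 over Fmo4 was the pair that overlapped. The 6 pairs are built from 4 genes, so they are not independent. How often ratios of other gene pairs separate the groups was not computed. Among single genes, 23.6% of all genes tested did so. The exact two-sided permutation test over samples gave p = 0.1 for each of those 5 pairs, the smallest value it can give for 3 libraries against 3, and 0.12 after adjustment over 6 pairs. This permutation test therefore could not reach 0.05 for any pair. Fmo1 over Fmo5, the pair of main transcripts, differed by −0.95 on the log2 scale, and Fmo2 over Fmo4 by −1.48.

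Fmo6 and Fmo9, a further pair of rows of the family, had few or no counts. Fmo6 had 0 counts in each library labelled DHT and 1, 3 and 5 counts in placebo, and Fmo9 had 0 counts in all 6 libraries. For a library, 3 counts correspond to between 0.0498 and 0.0726 CPM, which is the level that a count of 0 allows.

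Fmo1, Fmo2 and Fmo4 lie side by side on chromosome 1, and their exons overlapped those of no other counted gene. Among 15 tested genes within 500 kb of a member, leaving out rows of the Fmo family, the median log2 fold change was 0.21. Over all genes tested it was −0.0245. Of the 15, edgeR called 0 higher and 1 lower, beside 0.952% and 0.701% of all genes tested. The called one was Gm37273, annotated as an antisense transcript, with 0 counts over the libraries labelled DHT and 141 over placebo, at least 42.6-fold lower if the group is set at a limit of 3 counts. Its exons overlapped those of another counted gene on the opposite strand over 20.8% of their length, so its reads are uncertain without the strand setting, and leaving out placebo 2 ended its call. Prrc2c, the tested gene nearest to Fmo4, had a log2 fold change of −0.02 ± 0.35, and Prkab2, which encodes a subunit of the energy sensor AMPK and lies next to Fmo5, had 0.65 ± 0.31 (edgeR adjusted p = 0.35).

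The libraries were then read for the enzymes and cofactors around the monooxygenases. For 22 other phase I enzymes that are not cytochromes P450, the median log2 fold change was 0.32, beside −0.0245 over all genes tested. By edgeR, 1 of the 22 was called higher and 0 lower, beside 0.952% and 0.701% of all genes tested. That gene was Aox1, an aldehyde oxidase, with 125.6, 112.6 and 96.7 CPM in the libraries labelled DHT and 21.8, 34.6 and 21.8 CPM in placebo (log2 fold change 2.10 ± 0.28, edgeR adjusted p = 0.0122). The direction was opposite to that of Fmo2, and leaving out DHT 1, DHT 2 or placebo 1 ended the call (adjusted p up to 0.072). Its neighbour Aox3 had a log2 fold change of 1.48 ± 0.35 and did not pass (adjusted p = 0.09, and 0.00102 with the replicate block). Under that block 6 of the 22 were called higher, where 5.44% of all genes were, and 0 lower. An unadjusted p under 0.05 was found for 7 of the 22, beside 15.9% of all genes tested. DESeq2 called 4 and limma 5 of the 22, beside 7.03% and 4.92% of all genes.

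Of 5 genes of the P450 reductase and cytochrome b5 system, edgeR called 0 higher and 1 lower, beside 0.952% and 0.701% of all genes tested. DESeq2 and limma called 1 each, beside 7.03% and 4.92% of all genes. The replicate block called 0 higher and 1 lower, beside 5.44% and 5.28% of all genes. Por, the P450 reductase that the Fmo enzymes do without, had 157.4, 113.5 and 98.1 CPM in the libraries labelled DHT and 883, 1283 and 552 CPM in placebo, with no overlap. Its log2 fold change was −2.88 ± 0.39 (edgeR adjusted p = 0.0125), and leaving out DHT 2 or placebo 1 ended the call (up to 0.0818). Cyb5b, a cytochrome b5 of the outer mitochondrial membrane, had 0.70 ± 0.31 (adjusted p = 0.319).

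No gene passed edgeR's test among those that supply the cofactors of the Fmo enzymes, where 1.65% of all genes tested passed. Counts of 0 in lists this short are near that share. For riboflavin uptake and FAD synthesis, 0 of 5 genes were called by edgeR, and Rfk, the kinase that makes FMN from riboflavin, had −0.37 ± 0.22 as its log2 fold change (adjusted p = 0.455). For NADPH supply 0 of 9 were called, and Aldh1l1, which yields NADPH from formyl-tetrahydrofolate, had −0.91 ± 0.37 (adjusted p = 0.289). In the taurine pathway, where Fmo1 acts on hypotaurine, 0 of 6 were called, and Csad, which makes hypotaurine, had 0.51 ± 0.40 (adjusted p = 0.558). The second named member of each list, Slc52a3, H6pd and Gadl1, had 0.62 ± 0.45, 0.67 ± 0.42 and −0.70 ± 0.51. Of these 20 genes, 1 had an unadjusted p under 0.05, beside 15.9% of all genes tested. DESeq2, limma and the replicate block called 0 of the 20, beside 7.03%, 4.92% and 10.7% of all genes.

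Of 10 genes of choline and methylamine metabolism, edgeR called 1 higher and 0 lower, beside 0.952% and 0.701% of all genes tested. An unadjusted edgeR p under 0.05 was found for 4 of the 10, beside 15.9% of all genes tested. DESeq2 called 2 and limma 1, beside 7.03% and 4.92% of all genes. The replicate block called 1 higher and 1 lower, beside 5.44% and 5.28% of all genes. Chka, a choline kinase, had 44.3, 42.8 and 40.1 CPM in the libraries labelled DHT and 10.5, 5.59 and 6.99 CPM in placebo (log2 fold change 2.46 ± 0.30, edgeR adjusted p = 0.00862). It stayed called in each of 16 alternatives. Pemt, which makes phosphatidylcholine by methylation, had −0.88 ± 0.27 (adjusted p = 0.173).

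Genes of the aryl hydrocarbon receptor (AHR), through which dioxins are known to induce Fmo2 in mouse liver, had a median log2 fold change of −0.40. Of 7 tested, edgeR called 0, beside 1.65% of all genes tested. An unadjusted p under 0.05 was found for 1 of the 7, beside 15.9% of all genes. DESeq2 and limma called 1 each, beside 7.03% and 4.92% of all genes. Cyp1a2, an AHR target, had 185, 166 and 203 CPM in the libraries labelled DHT and 414.5, 1267 and 422 CPM in placebo. These groups did not overlap, as in 23.6% of all genes tested. Placebo 2 was the highest library for Cyp1a2, for Fmo1, Fmo2 and Fmo4, and also for Por and Esr1. Cyp1a1 was highest in placebo 3, at 1.89 CPM against 1.79 in placebo 2. The log2 fold change of Cyp1a2 was −1.93 ± 0.47 (edgeR adjusted p = 0.1004, and 0.000595 with the replicate block). That of Cyp1a1 was −1.04 ± 0.49 (edgeR adjusted p = 0.347). The part of AHR in the Fmo differences was not tested.

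Of 16 transcription factors and receptors of liver gene control, edgeR called 0 higher and 2 lower, beside 0.952% and 0.701% of all genes tested. An unadjusted edgeR p under 0.05 was found for 3 of the 16, beside 15.9% of all genes tested. DESeq2 and limma called 2 each, beside 7.03% and 4.92% of all genes. The replicate block called 0 higher and 2 lower, beside 5.44% and 5.28% of all genes. Cux2, a female-biased repressor in mouse liver, had 0.198 ± 0.0476 CPM in the libraries labelled DHT and 25.5 ± 12.7 CPM in placebo (SD, n = 3 each), a log2 fold change of −7.00 ± 0.54 (edgeR adjusted p = 0.00111). Esr1, which encodes estrogen receptor alpha, had 21.5, 11.7 and 12.7 CPM in the libraries labelled DHT and 86.2, 109 and 61.4 CPM in placebo (−2.48 ± 0.35, adjusted p = 0.0141), and leaving out DHT 2, DHT 3, placebo 1 or placebo 2 ended the call (up to 0.0891). Hnf4a, a hepatocyte lineage factor, had 0.20 ± 0.40 (adjusted p = 0.841), and Nr1h4, the bile acid receptor FXR, had −0.07 ± 0.29 (adjusted p = 0.93).

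**Figure D4:**
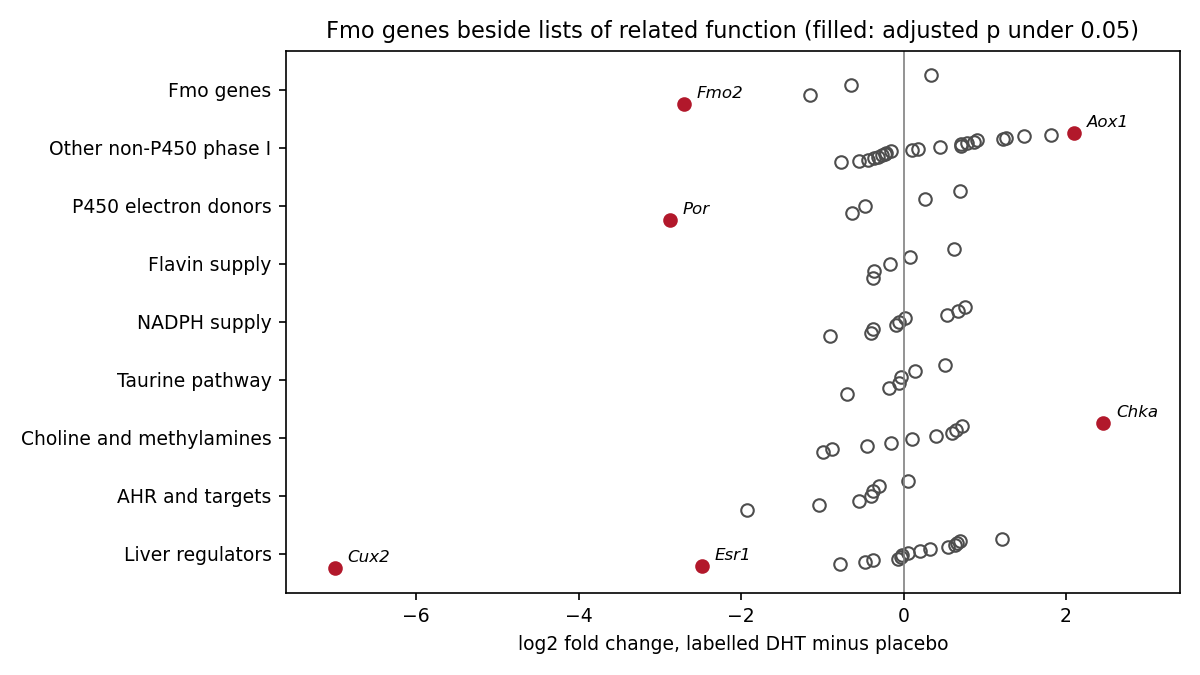
Log2 fold change (DHT minus placebo) of the Fmo genes and of each tested gene in 8 lists of related function, 1 circle per gene, filled where edgeR's adjusted p was under 0.05. Fmo2 at −2.70 lies beside Por at −2.88 and Esr1 at −2.48, while Aox1 and Chka are the filled circles to the right of 0.

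The genes whose pattern over the 6 libraries was closest to that of Fmo2 were Por, Esr1 and Atp6v0d2, a subunit of the vacuolar proton pump. Their centred log2 CPM profiles differed from that of Fmo2 by a root mean square of 0.209, 0.287 and 0.363 over 6 libraries, out of 11952 candidate genes. Atp6v0d2 had 2.37 ± 0.603 CPM in the libraries labelled DHT and 23.3 ± 8.85 CPM in placebo (SD, n = 3 each). Closest to Fmo4 were Car2, a carbonic anhydrase (0.205), Wee1, a cell cycle kinase (0.208), and Tnfaip8l3 (0.21). Closest to Fmo1 were Fn1, which encodes fibronectin (0.098), Enpp1, a nucleotide pyrophosphatase (0.105), and Gpr155 (0.111), and closest to Fmo5 were Gm765 (0.083), Rbm15b (0.094) and Brat1 (0.103).

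Markers of other cells were read beside these changes. Of 12 marker lists, the summed level separated the groups in 2. Among single genes, 23.6% of all genes tested separated them, and how often such sums do so was not computed. Periportal hepatocyte markers summed to 4777 to 9402 CPM in the libraries labelled DHT and 10063 to 12997 CPM in placebo. Of 8 periportal genes 0 were called by edgeR, 5 had an unadjusted p under 0.05 (15.9% of all genes tested had one), DESeq2 called 2, limma 0 and the replicate block 3, all lower. Pericentral markers overlapped, at 8432 to 10834 CPM in the libraries labelled DHT and 5848 to 12860 CPM in placebo, with 0 of 8 called by edgeR, DESeq2 or limma, 3 at an unadjusted p under 0.05 and 2 called higher with the replicate block. The adipocyte list was 4.56 to 59.9 CPM in the libraries labelled DHT and 0.0664 to 0.17 CPM in placebo, almost all of it Cfd, which encodes complement factor D (log2 fold change 8.07 ± 1.11, edgeR adjusted p = 0.0134). Leaving out placebo 1, placebo 2 or placebo 3 each ended the call of Cfd, as did limma (adjusted p = 0.206). The defining marker Lep was at 0 counts in all 6 libraries and Adipoq had 0 to 2 counts. Sums for hepatocytes, cholangiocytes, endothelium, stellate cells, Kupffer cells, lymphocytes, neutrophils, erythroid cells and lung epithelium overlapped. Of 38 tested genes in these 9 lists, edgeR called 0, 9 had an unadjusted p under 0.05, DESeq2 called 5 and limma 3, and the replicate block called 1 higher and 4 lower. Over all genes tested, edgeR called 1.65%, DESeq2 7.03% and limma 4.92%. The replicate block called 5.44% of all genes higher and 5.28% lower. The part of zonal or cell composition in the Fmo differences was not tested.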

How the data were processed

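Raw gene counts, whole numbers with no normalization, were deposited by the authors as 1 table per library, with exon coordinates and exon length per the file headers. Trimmomatic 0.36, STAR 2.5.2b, featureCounts, Subread 1.5.2 and the build GRCm38 come from the submitters' processing notes. The strand setting and the rule for multi-mapped reads are not given in the sources at hand. Reads shared by similar family members could be misassigned. GENCODE M21 gave the same coordinates for each Fmo gene reported.

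From these counts, edgeR 4.0.16 in R 4.3.3 (filterByExpr, TMM factors 0.9214 to 1.082, robust glmQLFit and glmQLFTest) compared the libraries labelled DHT with placebo over 15126 genes, with Benjamini-Hochberg adjustment and calls at an adjusted p under 0.05; all 4 members passed the filter. The SE is the log2 fold change divided by the root of F. CPM are TMM-scaled, except sums of marker lists and detection floors, which use all counts. Ratios of members added 0.5 counts. Floors cover counting error only.

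The members, gene lists and tests were chosen with earlier results of these data known. Named genes were the members, family rows Fmo6 and Fmo9, the 2 genes of smallest p in each pathway list, sex-linked checks, called genes within 500 kb and the 3 closest profiles per member (smallest root mean square difference, mean of at least 1 CPM). Hnf4a, Nr1h4, Prrc2c, Prkab2 and the marker genes fell outside that rule and were chosen after their values were seen. Other rows of the Fmo family are not analysed here. The replicate block, an alternative to the main fit, took the numbers as pairs, although the labels name no pairing and no shared batch. Deviations from the group mean of same-numbered libraries had a Pearson r over genes of 0.246, 0.145 and 0.602 for numbers 1, 2 and 3. Of the 3 libraries labelled DHT, 2 correlated more with another number, DHT 1 with placebo 2 (0.445) and DHT 2 with placebo 1 (0.287). The pairing is therefore not established, and calls with the replicate block depend on it. Alternatives were other scalings and filters, the replicate block, limma 3.58.1, DESeq2 1.42.0, a non-robust edgeR fit and leaving out libraries. All 15 pairs of libraries differed by more than sampling noise (smallest chi-square per degree of freedom 104).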

Additional observations from a re-analysis of the deposited data

How the results depend on the processing

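Over 16 alternatives each, Fmo1, Fmo2 and Fmo4 kept a negative and Fmo5 a positive log2 fold change. Leaving out libraries gave −2.87 to −2.41 for Fmo2, whose call was lost only without DHT 2 (−2.76, adjusted p = 0.0611), −0.94 to −0.20 for Fmo1, −1.60 to −0.91 for Fmo4 and 0.02 to 0.60 for Fmo5. The replicate block called Fmo4 (−1.20, adjusted p = 0.00312 beside 0.566 as the highest over alternatives), so that 2 of the 4 members were called, and it changed the call of no other member. Without 1 library 0 or 1 member was called. The 250 genes called in all became 1621 with the replicate block, 1062 with DESeq2, 744 with limma, 521 with no low-count filter, 448 without both libraries numbered 3 and 84 to 862 without 1 library. Library size alone put the median gene at a log2 fold change of 0.165, and Fmo2 was then −2.51. Of the genes in the pathway lists 5 were called, and 12 with the replicate block, 10 with DESeq2, 10 with limma and 2 to 10 without 1 library. Near the members 1 gene was called, and 0 at a minimum of 1 CPM, 2 with limma and 0 to 2 without 1 library. The cause of these shifts was not tested. Differences of the 6 member ratios kept their sign in each of 8 alternatives, and an exact test by sign flips within replicate numbers (the replicate block) gave p = 0.25 for Fmo2 over Fmo5, the smallest that 3 pairs allow. Depth limits Fmo6 and Fmo9, at 0 to 5 counts.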
